A study of Mus musculus with 29 samples.

Results

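The response of the caudate-putamen to MPTP was examined in AChE-S mice, a transgenic line on the FVB/N background that expresses the human AChE-S variant of acetylcholinesterase. It was measured on 4 Affymetrix expression arrays of total RNA, taken by their titles from the 29 arrays of the series: 2 of MPTP-exposed and 2 of naive AChE-S mice. Per the labels, MPTP was given in 4 injections of 20 mg/kg at intervals of 2 h, 80 mg/kg in all, and the tissue was dissected 4 days later. In each strain 6 mice were injected with MPTP and 6 with saline. Whether the naive arrays hold the saline-injected mice, how many mice an array holds, their age, and the promoter and founders of the transgene are not stated in the sources used here. The arrays set beside them hold the same region of FVB/N mice, which carry no transgene (2 MPTP-exposed and 2 naive arrays), and of AChE-R mice, which express the human AChE-R variant on the same background (1 MPTP-exposed and 2 naive arrays). The title, source and treatment labels of 1 naive FVB/N array call it naive while its description calls it MPTP-exposed. It was kept as naive, and the main FVB/N counts and the calls that change without it are given below.

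MPTP is a toxin that enters the brain and is turned by glia into a cation that the dopamine transporter carries into dopamine neurons, where it blocks complex I of the respiratory chain. The caudate-putamen holds the terminals of these neurons, but their cell bodies lie in the midbrain, so loss of terminals need not remove much RNA from the region itself. What a striatal array reads are the projection neurons and interneurons that receive dopamine, the glia, which react to dying terminals, and the vessels. Acetylcholinesterase ends cholinergic signalling by splitting acetylcholine. AChE-S is its main synaptic splice variant, and AChE-R is a soluble variant that stress induces.

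Values are log2 signals after RMA, a method that corrects, normalizes and summarises probe intensities, so a step of 1 is a 2-fold difference in signal. The median signal of the 4 AChE-S arrays lay between 7.74 and 7.77. Tissue markers fitted the label: Drd2, the dopamine D2 receptor, read 10.74 to 11.43 in the 11 caudate-putamen arrays and 6.25 to 8.16 in the 18 prefrontal arrays. Markers of neighbouring tissue set the naive AChE-S arrays apart before any effect of MPTP is read. The mean signal of 17 cortical glutamatergic markers was 7.80 and 7.91 in the naive AChE-S arrays, below the other 9 caudate-putamen arrays (8.02 to 8.64). The mean of 14 thalamic markers was 7.95 and 8.29 there, above the other 9 (7.25 to 7.83). Oxt, the oxytocin precursor made in the hypothalamus, read 11.85 and 12.45 in them against 9.48 to 11.59 in the other 9. The mean of 14 hypothalamic and septal markers was 8.88 and 9.27 in them and 7.77 to 8.91 in the other 9, a range that overlaps. The part of these marker differences in the results below was not tested. In bulk tissue, fewer cells of a type and less RNA per cell cannot be told apart.

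The genes that rose in MPTP-exposed AChE-S caudate-putamen included 7 of 26 acute-phase genes, 7 of 20 microglial markers and 6 of 17 cortical markers. Those that fell included 9 of 15 meningeal, 4 of 14 thalamic and 2 of 14 hypothalamic and septal markers. With limma and Benjamini-Hochberg adjustment, 318 of 22626 probe sets passed an adjusted p of 0.05 (1.41%), 168 higher and 150 lower after MPTP. Represented by 1 probe set each, 123 of 12393 genes rose (0.992%) and 90 fell (0.726%). The rises reached 20.0-fold with a median log2 size of 0.62, and the falls reached 3.9-fold with a median of 0.66; 31 rises and 18 falls were at least 2-fold. The median log2 difference over all genes was 0.02, with 7033 of the 12393 differences positive and 5257 negative. For all 213 called genes the 2 exposed arrays lay on one side of the 2 naive arrays. Such separation is common here: over all 12393 genes, both exposed arrays lay above both naive arrays in 23.7% and below them in 19.0%. One MPTP array carried much of the count: without MPTP array 2, 51 probe sets passed, and without naive array 1, 151. Without MPTP array 1 or naive array 2 there were 295 and 273. A fit without the term for 2 sets of naive prefrontal arrays passed 100, and one without the 6 naive prefrontal arrays numbered 1 and 2 passed 855, with all 213 genes among its calls. The error in these tests came from the spread within groups over all 29 arrays of the series, prefrontal arrays included. A fit on the 4 AChE-S caudate-putamen arrays alone passed 69 probe sets. Nothing in the labels says that the arrays came from separate animals, so the p-values measure only the spread between arrays.

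**Figure D1:**
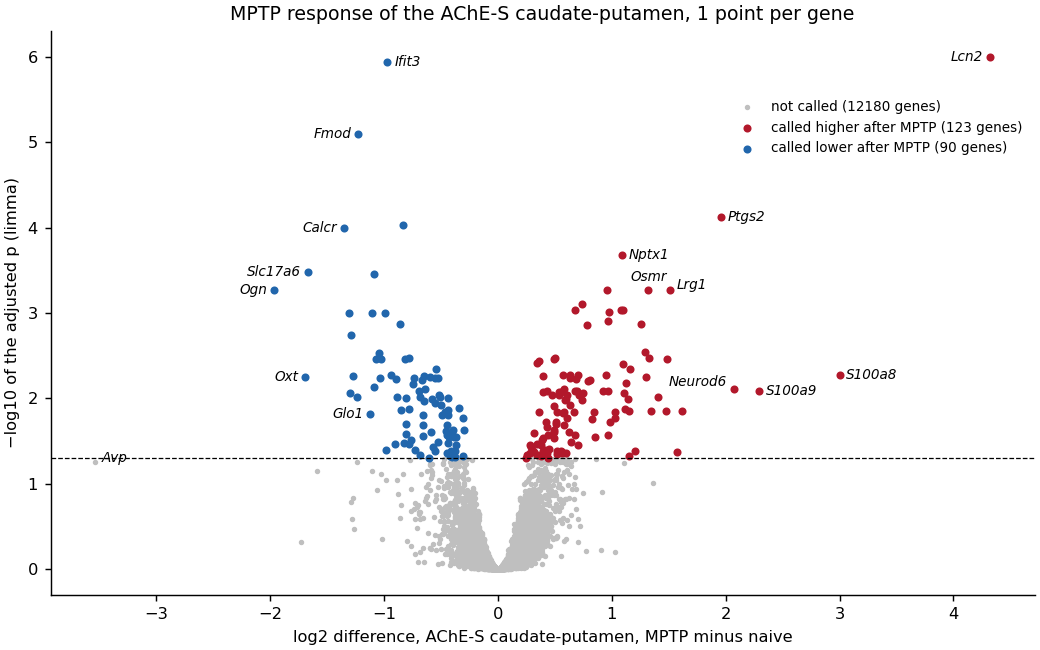
Each point is a gene: the x axis is the log2 difference of MPTP-exposed minus naive AChE-S caudate-putamen and the y axis −log10 of the adjusted p from limma, with the 0.05 threshold dashed. Red marks 123 genes called higher and blue 90 called lower. Lcn2 stands alone at the upper right and Ifit3 and Fmod at the upper left, while Avp has the largest fall and lies just under the threshold.

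Which side of the comparison stood out differed between genes. Among the 123 rises, 20 had both MPTP-exposed AChE-S arrays above the other 9 caudate-putamen arrays of all 3 strains. For 50 others both naive AChE-S arrays lay below the other 9, for 3 both held, and for 50 neither held. Among the 90 falls, the MPTP-exposed pair lay lowest for 21, the naive pair lay highest for 41, both held for 9 and neither for 19. No share over all genes is given beside these counts, and the called genes were selected for a gap between the pairs. The counts therefore describe where the arrays lay and are not a trait of the called genes. The 50 rises with the naive pair lowest include Osmr, Csf3r, Thbs4, Cdk1 and the microglial markers Fcgr3, Ctss, Ly86 and Selplg. Lcn2, S100a8, S100a9 and the C1q genes are among the 50 for which neither held. The 20 rises include Sgk1, a kinase induced by glucocorticoids, and Arntl, the clock factor BMAL1. They also include Lrrk2, a kinase mutated in familial parkinsonism, which read 9.22 and 9.09 in naive and 9.63 and 9.66 in MPTP-exposed AChE-S arrays (1.40-fold, adjusted p = 0.0245).

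Acute-phase genes gave the largest rises. Of 26 measured genes of a list of acute-phase and cytokine-induced genes, 7 rose and none fell, with a median log2 difference of 0.25 against 0.02 over all genes. Lcn2, lipocalin 2, a secreted protein that withholds iron from bacteria and is induced by inflammation, read 5.11 and 4.81 in the naive arrays and 8.75 and 9.81 after MPTP. The pairs lie far apart, and the log2 difference of 4.32 ± 0.34 (SE) is 20-fold (adjusted p = 9.98e-07, limma). S100a8 and S100a9 encode the subunits of calprotectin, a calcium-binding protein released in inflammation. S100a8 read 5.06 in both naive arrays and 7.27 and 8.85 after MPTP, a rise of 3.00 ± 0.52 (adjusted p = 0.0053). S100a9 read 5.20 and 5.46 in naive and 6.90 and 8.34 after MPTP, a rise of 2.29 ± 0.43 (adjusted p = 0.00814). MPTP array 2 was the higher for all 3 genes; without it the S100a8 and S100a9 differences were 2.21 and 1.57, with adjusted p of 0.194 and 0.314.

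The receptor and regulator genes of the same list moved with them. Osmr, the oncostatin M receptor subunit, read 6.28 and 6.47 in naive and 7.55 and 7.84 after MPTP (1.32 ± 0.18, adjusted p = 0.000542). Cebpd, a transcription factor of the acute-phase response, read 7.24 and 7.16 in naive and 8.14 and 8.95 after MPTP (adjusted p = 0.014). Lrg1, a secreted glycoprotein induced by cytokines, rose from 6.04 and 5.77 to 7.27 and 7.56 (2.85-fold, adjusted p = 0.000542). In each of these genes both exposed arrays lay above both naive arrays. Ch25h, the enzyme that makes 25-hydroxycholesterol, rose 2.17-fold (adjusted p = 0.0133). Ptgs2, cyclooxygenase 2, is not in this list. It makes prostaglandins, is also expressed by cortical neurons, and rose from 4.75 and 4.37 to 6.21 and 6.83 (1.96 ± 0.21, adjusted p = 7.44e-05). Serpina3n, Socs3, Saa3 and Timp1 belong to the list and were not called (adjusted p = 0.754, 0.0979, 0.838 and 0.931), although 1 of the 3 Socs3 probe sets was. The second probe sets of Osmr and Cebpd were not called (0.42 ± 0.13 and 0.10 ± 0.12). Without MPTP array 2, 3 of the 26 genes were called; without MPTP array 1, 10.

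The bases before the start sites of Lcn2 and Ptgs2 are shown because both genes rose beside Cebpd and both hold a match to the C/EBP motif, and those of Ifit3 because it had the smallest adjusted p among the genes that fell. Each is the 250 bases before the start site from RefSeq (GRCm38.p6), 5′ to 3′ on the gene's strand, with motif matches in capitals. Lcn2 is chr2:32387740-32387989 on the minus strand, Ptgs2 chr1:150099781-150100030 and Ifit3 chr19:34583279-34583528, both on the plus strand.
Lcn2: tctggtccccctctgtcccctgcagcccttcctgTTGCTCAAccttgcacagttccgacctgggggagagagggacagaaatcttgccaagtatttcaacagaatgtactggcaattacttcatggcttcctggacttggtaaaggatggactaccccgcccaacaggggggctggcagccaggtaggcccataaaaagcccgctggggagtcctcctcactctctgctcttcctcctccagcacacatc
Ptgs2: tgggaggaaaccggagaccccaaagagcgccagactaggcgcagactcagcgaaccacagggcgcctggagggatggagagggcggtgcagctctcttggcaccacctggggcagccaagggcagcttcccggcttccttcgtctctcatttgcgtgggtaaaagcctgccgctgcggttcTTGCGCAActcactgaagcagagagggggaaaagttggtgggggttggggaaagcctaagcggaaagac
Ifit3: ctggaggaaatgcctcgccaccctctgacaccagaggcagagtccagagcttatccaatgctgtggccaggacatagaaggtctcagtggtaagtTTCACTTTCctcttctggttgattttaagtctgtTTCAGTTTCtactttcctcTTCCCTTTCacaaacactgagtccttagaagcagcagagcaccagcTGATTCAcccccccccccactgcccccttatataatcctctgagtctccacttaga
The capitals in Lcn2 (bases -216 to -209 from the start site) and Ptgs2 (-69 to -62) match the C/EBP motif, searched as TTGCNNAA on both strands. The first 3 runs of capitals in Ifit3 (-155 to -147, -121 to -113 and -102 to -94) match the interferon-stimulated response element, searched as GAAANNGAA, and the run nearest the start (-56 to -50) matches AP-1, searched as TGANTCA; no match overlapped another. Among all 32851 RefSeq promoters of 300 bases, the C/EBP motif is in 10.8%, the interferon motif in 8.6% and the AP-1 motif in 7.8%. Promoters were found for 95 of the 123 rises, and 14 of these 136 promoters (10.3%) hold the C/EBP motif, a share near that of all promoters. Among other rises whose promoters were read singly, S100a9 and Ch25h held the C/EBP motif and S100a8, Lrg1 and Osmr did not. The interferon motif is in 6 of 89 promoters of the falls (6.7%). A match is a description of the letters.

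Lcn2, S100a8 and S100a9 are also markers of neutrophils, so the other markers of blood myeloid cells were read beside them. Of 14 measured neutrophil and monocyte markers, 4 rose: those 3 and Csf3r, the G-CSF receptor (1.60-fold, adjusted p = 0.000928). The other 10 were not called. Elane, neutrophil elastase, read 5.98 and 5.77 in naive and 6.09 and 6.08 after MPTP (adjusted p = 0.639), and Cxcr2, a chemokine receptor of neutrophils, read 5.74 and 5.57 against 5.78 and 5.83 (adjusted p = 0.573). The mean signal of the 14 was 5.89 and 5.79 in naive and 6.46 and 6.89 after MPTP, and the 3 genes named first are part of that mean. None of 14 lymphocyte markers was called.

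Of 20 measured microglial markers 7 rose and none fell, 13 were not called, and the median log2 difference was 0.44. The rises were the complement genes C1qa, C1qb and C1qc, the Fc receptor Fcgr3, the protease Ctss, Ly86 and Selplg. For Fcgr3, Ctss, Ly86 and Selplg both naive AChE-S arrays lay below the other 9 caudate-putamen arrays. For the C1q genes neither AChE-S pair lay beyond the other 9. The list's mean signal was 8.52 and 8.44 in naive and 8.87 and 9.04 in exposed AChE-S arrays. In the naive arrays of the other strains it was 8.64 to 8.76. C1qa, a chain of the protein that starts the classical complement cascade, read 10.36 and 10.10 in naive and 10.96 and 11.39 after MPTP (0.94 ± 0.17, adjusted p = 0.0053). Fcgr3 read 7.71 and 7.70 in naive and 8.35 and 8.90 after MPTP (1.89-fold, adjusted p = 0.00809). The exposed arrays lay above the naive arrays for both. The homeostatic markers P2ry12, Cx3cr1 and Tmem119 were not called, and P2ry12 read 9.69 and 9.65 in naive and 9.67 and 9.25 after MPTP. Of 20 genes of activated, lysosome-rich microglia, 2 rose: Cd14, the co-receptor for bacterial lipopolysaccharide (2.20-fold), and Cst7, a protease inhibitor (1.30-fold). Neither of these was called without MPTP array 2 or naive array 1, and Cst7 was not called without naive array 2. The count of the 20 markers rested on MPTP array 2: without it none of the 20 was called, against 1255 probe sets with an unadjusted p under 0.05 over the whole array, and without naive arrays 1 and 2 in turn 4 and 1 were called. Of 13 complement genes the 3 C1q genes rose, and without MPTP array 2 or naive array 2 none did.

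**Figure D2:**
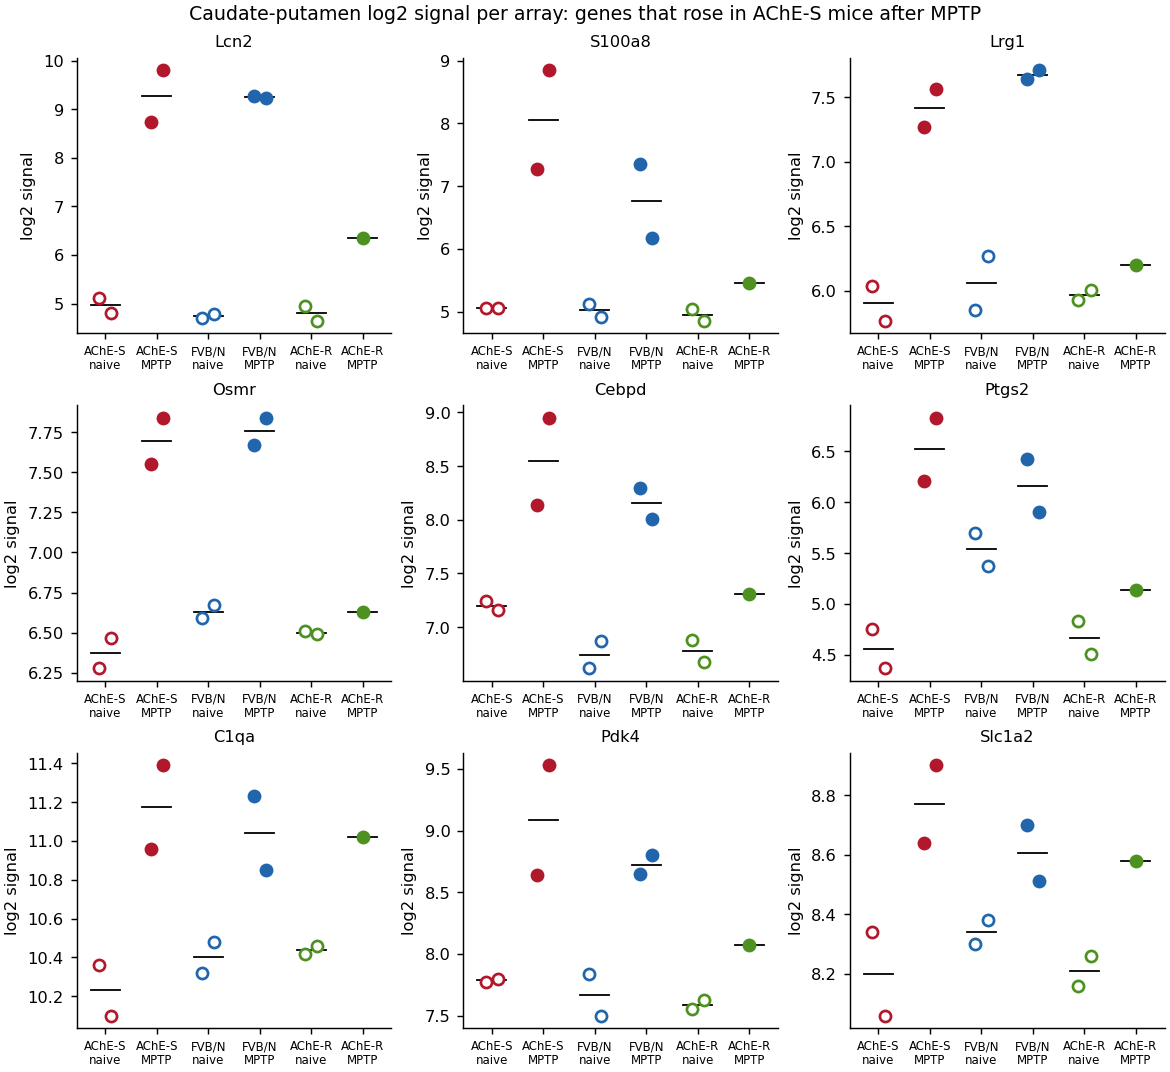
Log2 signal of 9 genes that rose in AChE-S caudate-putamen, with 1 point per array (open, naive; filled, MPTP-exposed) and a bar at the group mean, for AChE-S (red), FVB/N (blue) and AChE-R (green). In every panel both filled red points lie above both open red points, and for Lcn2 the filled red and blue points lie between 8.75 and 9.81 while the AChE-R array reads 6.35.

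Of 20 measured glucocorticoid-induced genes 5 rose, none fell, and all 20 had a positive difference (median 0.52). Plin4, a coat protein of lipid droplets, read 7.28 and 7.07 in naive and 8.02 and 9.57 after MPTP (3.07-fold, adjusted p = 0.014). Pdk4, the kinase that slows glucose oxidation, read 7.77 and 7.80 in naive and 8.64 and 9.53 after MPTP (2.46-fold, adjusted p = 0.00565). In both genes the exposed arrays lay above the naive ones but array 2 was the higher. Sgk1, Fkbp5 (a chaperone of the glucocorticoid receptor) and Cebpd completed the 5. The list's mean signal was 9.62 and 9.64 in naive and 9.98 and 10.52 in MPTP arrays 1 and 2. Without array 2 none of the 20 was called, and without array 1, 11 were. Without naive array 1 or 2 the count was 1 and 2. In FVB/N 9 of the 20 were called higher, with a median of 0.78, and in AChE-R the median was 0.16. The list's mean signal was 9.29 to 9.39 in the naive arrays of these strains, below the naive AChE-S arrays.

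Astrocyte genes showed no common direction. Of 19 astrocyte markers, Slc1a2, the main glutamate transporter, rose from 8.34 and 8.06 to 8.64 and 8.90 (1.48-fold, adjusted p = 0.0053). Aqp4, the water channel of astrocyte endfeet, fell from 9.99 and 10.17 to 9.52 and 9.36 (1.56-fold lower, adjusted p = 0.00782), and its second probe set, at -1.02 ± 0.59, was not called. Without MPTP array 2 or naive array 2 neither was called. Of 21 reactive-astrocyte genes, Osmr was the 1 that rose, and Gfap, the filament protein that marks reactive astrocytes, read 9.51 and 9.61 in naive and 9.83 in both exposed arrays (adjusted p = 0.772).

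Among genes that mark the tissue around the caudate-putamen, called cortical markers were higher and called thalamic, hypothalamic and meningeal markers lower. Of 17 cortical glutamatergic markers, 6 rose and none fell (median 0.40). Neurod6, a pyramidal neuron transcription factor, read 5.13 and 5.61 in naive and 7.39 and 7.49 after MPTP (2.07 ± 0.39, adjusted p = 0.00782). Tbr1, a transcription factor of deep-layer cortical neurons, read 7.03 and 7.40 in naive and 8.34 and 8.74 after MPTP (1.32 ± 0.22, adjusted p = 0.00337). Both genes were higher in every exposed array than in either naive array. The other 4 were Cck, Fezf2, Nptx1 and Ptgs2, the last also named above but not part of the acute-phase list. The list's mean signal after MPTP, 8.41 and 8.53, lay within the range of the naive FVB/N arrays (8.64 and 8.33), and the naive AChE-S arrays were the lowest of the 11. Without MPTP array 2 or naive array 1, 3 of the 17 were called.

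Of 14 thalamic markers 4 fell, led by Slc17a6, the vesicular glutamate transporter of subcortical neurons, which read 9.97 and 10.81 in naive and 8.82 and 8.62 after MPTP (3.18-fold lower, adjusted p = 0.000334). Of 14 hypothalamic and septal markers 2 fell, Oxt (-1.69 ± 0.30, adjusted p = 0.00558) and Gal, the neuropeptide galanin (-1.09 ± 0.14, adjusted p = 0.00035). Avp, the vasopressin precursor, read 10.15 and 10.43 in naive and 6.79 and 6.72 after MPTP, a gap of -3.54 ± 0.90 that was not called (adjusted p = 0.0558). Its error is the spread over all 29 arrays, and fitted on the 11 caudate-putamen arrays it was called (adjusted p = 0.0185). Calcr, the calcitonin receptor, read 7.56 in both naive arrays and 6.45 and 5.96 after MPTP (adjusted p = 0.000102). The mean signal of the thalamic list was 7.95 and 8.29 in naive and 7.61 and 7.57 after MPTP, and that of the hypothalamic list 8.88 and 9.27 in naive and 8.20 and 8.14 after MPTP. Counts without single arrays were 3 to 4 for the thalamic and 1 to 3 for the hypothalamic list; without MPTP array 1 or naive array 2 the latter was 1, and without naive array 1 it was 3.

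Of 15 meningeal fibroblast markers 9 fell and none rose, with a median of -0.80, and 14 of the 15 had a negative difference. Ogn, osteoglycin, a small matrix proteoglycan, read 6.92 and 7.29 in naive and 5.10 and 5.18 after MPTP (-1.97 ± 0.26, adjusted p = 0.000542). Fmod, fibromodulin, a proteoglycan that binds collagen, read 8.26 and 8.24 in naive and 7.15 and 6.89 after MPTP (-1.23 ± 0.12, adjusted p = 8.06e-06). Both fell by more than the spread within either pair, and 5 of the 6 Fmod probe sets were called lower. Without the set term, which covers prefrontal arrays alone, the Fmod difference was the same but its error was 0.42, and it was not called (adjusted p = 0.367). Igf2, a growth factor made by meninges and choroid plexus, fell 2.45-fold, and Igfbp2, which binds it, fell 2.46-fold. Col3a1, a fibrillar collagen chain, fell 2.03-fold, and Mgp, a matrix protein outside the list, 2.47-fold. The mean signal of the 15 markers was 7.98 and 8.13 in naive, 7.28 and 7.26 after MPTP, and 7.37 to 7.90 in the other 7 arrays. Leaving out MPTP array 2 left 3 called, and the other omissions left 6 to 8; naive array 2 gave the 6.

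Of 13 choroid plexus markers 2 fell, Calml4 and Otx2, a homeobox factor (adjusted p = 0.00963 and 0.0309), and all 13 differences were negative, with a median of -0.80. The mean signal of the list was 7.94 and 7.90 in naive and 7.00 and 7.16 after MPTP. It varied as widely between replicates of another strain, at 7.75 and 6.45 in the 2 MPTP-exposed FVB/N arrays. Neither gene was called without naive array 1, naive array 2 or MPTP array 1, and 1 was without MPTP array 2. Of 7 ependymal markers none was called and all had a negative difference (median -0.46).

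**Figure D3:**
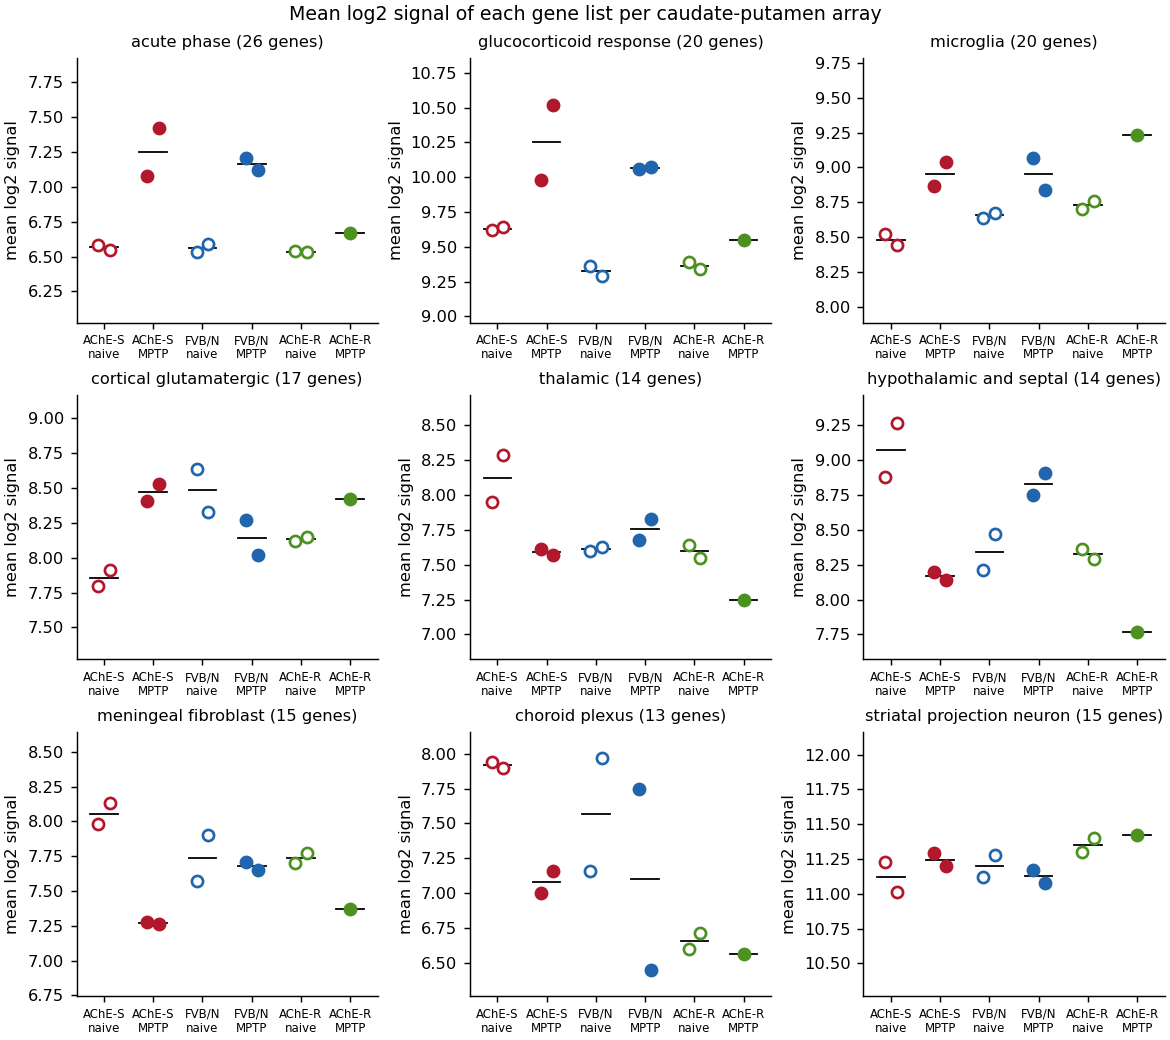
Mean log2 signal of the measured genes of 9 lists in each caudate-putamen array (open, naive; filled, MPTP-exposed; bar, group mean), each panel spanning the same range of log2 signal. The filled red points lie above the open ones for acute-phase, glucocorticoid, microglial and cortical genes and below them for thalamic, hypothalamic, meningeal and choroid plexus genes, while striatal projection neuron genes overlap (11.01 to 11.29).

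Markers of the projection neurons themselves, which make up most of the region, showed no called change in the main fit. Of 24 listed markers 15 were measured. None was called, in this fit or with the 11 caudate-putamen arrays alone, and their median difference was 0.10. Their differences were positive in 12 and negative in 3. Without the 6 naive prefrontal arrays numbered 1 and 2, 1 of the 15 was called higher. Penk, the enkephalin precursor of indirect-pathway neurons, read 13.23 and 12.91 in naive and 13.15 and 13.11 after MPTP. Ppp1r1b, the dopamine-regulated phosphatase inhibitor DARPP-32, read 12.32 and 11.95 against 12.22 and 12.28. In both genes the pairs overlap.

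Dopamine-neuron genes were mostly not called. Th, tyrosine hydroxylase, the first enzyme of dopamine synthesis, read 7.93 and 7.99 in naive and 7.59 and 7.28 after MPTP. The exposed arrays lay lower, at -0.53 ± 0.61, but the error from all 29 arrays is large and Th was not called (adjusted p = 0.861); on the 11 caudate-putamen arrays it was (adjusted p = 0.0321). Slc6a3, the dopamine transporter, read 5.67 and 5.60 in naive and 5.66 and 5.72 after MPTP and was not called (adjusted p = 0.966). Of 19 dopamine-pathway genes Sncg alone fell, γ-synuclein, a relative of α-synuclein, from 7.69 and 7.52 to 6.87 and 6.55 (1.86-fold lower, adjusted p = 0.00595). Without MPTP array 2 or naive array 1 it was not called (adjusted p = 0.200 and 0.0780). For Sncg, as for the hypothalamic list mean (8.88 and 9.27 in naive, 8.20 and 8.14 after MPTP), the exposed arrays lay lower. Within the naive pair Sncg was the higher in array 1 and the list mean in array 2. The part of that tissue was not tested.

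Ache, the mouse gene of the enzyme that the transgene supplies in human form, fell. Whether its probe set also detects the human transcript was not tested. It read 10.22 and 10.37 in naive and 9.81 and 9.46 after MPTP (-0.66 ± 0.14, 1.58-fold lower, adjusted p = 0.0155). In FVB/N mice it read 9.65 and 9.64 in naive and 9.96 and 10.23 after MPTP, so the pairs were ordered the other way and the 2 responses differed by -1.11 ± 0.20 (adjusted p = 0.00777). In AChE-R mice it read 9.83 and 9.77 in naive and 9.46 in the exposed array, lower as in AChE-S. The naive AChE-S arrays read above the naive arrays of both other strains. Ache was not called without MPTP array 2, naive array 1 or naive array 2 (-0.48 to -0.73, adjusted p of 0.451, 0.057 and 0.103), nor without the set term (adjusted p = 0.477). The mean signal of the hypothalamic and septal list moved the same way as Ache in each strain. It went from 8.88 and 9.27 to 8.20 and 8.14 in AChE-S and from 8.21 and 8.47 to 8.75 and 8.91 in FVB/N. In AChE-R it went from 8.36 and 8.29 to 7.77. The part of this list in the result was not tested. Of 19 cholinergic genes 1 other fell, Ngfr, the neurotrophin receptor of basal forebrain cholinergic neurons (1.72-fold lower, adjusted p = 0.0344), which was not called without MPTP array 2, naive array 1 or naive array 2 (adjusted p = 0.664, 0.0639 and 0.198). Slc5a7, the choline transporter, read 6.99 and 6.89 against 6.20 and 6.42 (adjusted p = 0.147), and Bche, butyrylcholinesterase, 5.43 and 5.40 against 5.33 and 5.49 (adjusted p = 0.994).

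Ifit3 gave the most regular fall. Ifit3, an antiviral protein induced by interferon, read 7.33 and 7.25 in naive and 6.37 and 6.27 in MPTP-exposed AChE-S caudate-putamen, a difference of -0.97 ± 0.08 (adjusted p = 1.14e-06). The other 7 caudate-putamen arrays read 7.06 to 7.34, so the exposed AChE-S pair stood below all others. The same held in the prefrontal cortex, where the 2 exposed AChE-S arrays read 6.45 and 6.54 and the other 16 arrays 6.96 to 7.57. None of the other 22 measured interferon and antigen-presentation genes was called; Ifit1 read 5.82 and 5.88 in naive and 5.78 and 5.42 after MPTP, and Irf7, the interferon regulator, 5.80 and 5.73 against 5.79 and 5.80.

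Glo1, glyoxalase 1, which detoxifies methylglyoxal, showed another pattern. It read 11.93 and 11.91 in naive AChE-S caudate-putamen and 10.48 and 11.12 after MPTP (2.17-fold lower, adjusted p = 0.0154), and all 3 of its probe sets were called lower. The other 7 caudate-putamen arrays read 10.29 to 10.56, so here the naive AChE-S pair stood out and the exposed arrays lay nearer the other strains. In the prefrontal cortex the 4 naive AChE-S arrays read 11.03 to 11.83, the 2 exposed 10.36 and 10.84, and the other strains 9.24 to 10.51. Glo1 was not called without MPTP array 1 (-0.80, adjusted p = 0.214) or without either naive array (adjusted p = 0.108 and 0.0679).

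**Figure D4:**
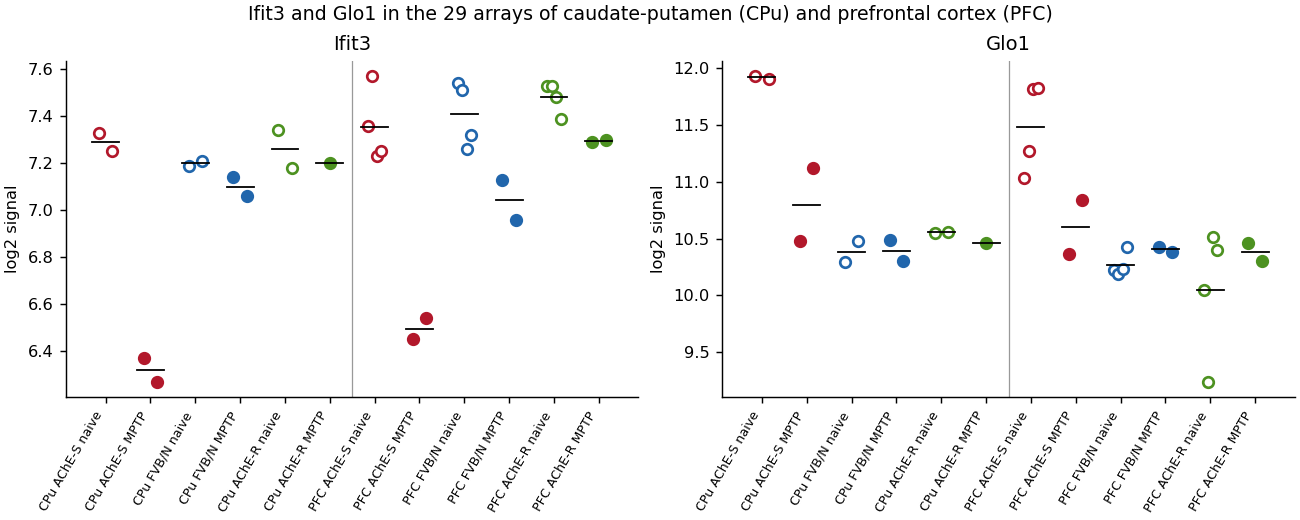
Log2 signal of Ifit3 and Glo1 in all 29 arrays by region, strain and treatment (open, naive; filled, MPTP-exposed; bar, group mean). Filled red points, the exposed AChE-S arrays, are the lowest for Ifit3 in both regions (6.27 to 6.54), while for Glo1 the open red points, the naive AChE-S arrays, are the highest of each region (11.91 and 11.93 in the caudate-putamen, 11.03 to 11.83 in the prefrontal cortex).

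Single genes of metabolism and the clock were called. Of 13 cholesterol synthesis genes 3 fell, the enzymes Sqle (1.43-fold lower, adjusted p = 0.0091), Cyp51 and Msmo1, and 12 of the 13 differences were negative (median -0.39). Without MPTP array 2 or naive array 2 none of them was called, and without naive array 1, 1 was. Of 23 metallothionein and antioxidant genes, Glo1, Gpx3 (a secreted glutathione peroxidase) and Gsta4 (a transferase that clears lipid peroxidation products) fell; each single omission left 1 called. Among 15 clock genes Npas2 rose from 8.88 and 8.96 to 9.60 and 9.74 (adjusted p = 0.00857) and Arntl from 8.85 and 8.86 to 9.42 and 9.48 (adjusted p = 0.0102). Their repressor Cry1 fell from 7.90 and 7.84 to 7.38 and 7.30 (adjusted p = 0.0327). The exposed and naive pairs were apart for all 3; without MPTP array 2 or naive array 1 none of the 3 was called, and Cry1 was not called without any 1 of the 4 arrays. The hour of dissection is not stated in the labels.

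Other lists held few or no called genes. None was called among 34 complex I subunits, the target of the toxin (median -0.07), 43 subunits of complexes II to V (-0.05), 47 ribosomal proteins (0.04), 14 myelin genes (-0.09), 6 oligodendrocyte precursor genes (-0.01), 26 chaperones (0.09), 24 immediate early genes (0.09) or 4 erythroid genes (0.04). Of the 34 complex I genes 2 had a positive difference, and of the 43 genes of complexes II to V 8 did. Single genes were called in others: Cdk1, the mitotic kinase, rose among 21 cell cycle genes, all with a positive difference (median 0.21), Kcnj8, a pericyte channel, among 24 vascular genes, Stx1a among 14 synaptic vesicle genes, and Vip, a peptide of interneurons, among 14 interneuron genes, while Gal fell among 18 injury genes. Without MPTP array 2, of these genes Gal alone was called. Kcnj8 was called under none of the 4 single omissions, Stx1a under that of naive array 2 and Cdk1 under that of naive array 1. Vip was called without MPTP array 1 or naive array 1. Over the whole array 2479 probe sets had an unadjusted p under 0.05.

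Beside FVB/N mice, which carry no transgene, the AChE-S response was similar in size for several inflammatory genes and differed for tissue markers. In FVB/N 46 of 12393 genes were called (0.371%). That count rested on single arrays: it was 1 without exposed FVB/N array 2, 28 without exposed array 1, 8 without naive array 1 and 29 without naive array 2, the one whose labels disagree. It was 5 without the set term, 108 without the 6 prefrontal arrays and 234 with array weights. Over all 12393 genes, 6675 had a positive difference in FVB/N. Of the 123 AChE-S rises, 80 had a positive difference in FVB/N, 14 were also called higher there and 5 were called lower. The 14 are 11.4% of the AChE-S rises and 41.2% of the 34 FVB/N rises, and without naive FVB/N array 2 there were 7 such genes of 11 FVB/N rises. Of the 90 AChE-S falls, 39 were negative in FVB/N, and 1 was called lower there. The median log2 difference of the 123 rises was 0.62 in AChE-S and 0.11 in FVB/N, and that of the 90 falls -0.66 and 0.03.

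Lcn2 read 4.71 and 4.79 in naive and 9.28 and 9.23 in exposed FVB/N arrays, a rise of 4.50 ± 0.34 (adjusted p = 6.91e-07). The AChE-S and FVB/N rises of Lcn2 differed by -0.18 ± 0.47, and the difference was not called. Lrg1, Osmr, Cebpd and Plin4 were called higher in both strains, with FVB/N differences of 1.61, 1.12, 1.41 and 1.80; without naive FVB/N array 2, Lcn2, Lrg1 and Osmr were still called there and Cebpd and Plin4 were not (adjusted p = 0.0926 and 0.183). S100a8 read 5.13 and 4.91 in naive and 7.36 and 6.18 in exposed FVB/N arrays, which was not called (1.75 ± 0.52, adjusted p = 0.262), and the 2 responses of S100a8 differed by 1.25 ± 0.74, also not called. The rise of Ptgs2 was larger in AChE-S: 5.70 and 5.37 in naive against 6.42 and 5.90 in exposed FVB/N arrays, with a difference between responses of 1.34 ± 0.30 (adjusted p = 0.0463). The cortical list, which holds Ptgs2, had mean signals of 7.80 and 7.91 in naive and 8.41 and 8.53 in exposed AChE-S arrays, against 8.64 and 8.33 and then 8.27 and 8.02 in FVB/N.

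The difference between the 2 responses, tested as AChE-S minus FVB/N, was called for 136 probe sets (0.601%) and 95 genes (0.767%), 49 higher and 46 lower. The largest positive differences were Neurod6, Myl4, Tbr1 and Cck. Neurod6 rose by 2.07 in AChE-S and fell by 2.02 in FVB/N, where it read 8.37 and 7.61 in naive and 6.82 and 5.12 in exposed arrays, a difference of 4.09 ± 0.55 (adjusted p = 0.00062). Myl4, an embryonic myosin light chain, differed by 3.09 ± 0.43 and Cck, the peptide cholecystokinin, by 2.10 ± 0.28. The largest negative differences were Oxt (-2.39 ± 0.42, adjusted p = 0.00825), Calcr (-2.06 ± 0.22, adjusted p = 0.000118) and Slc17a6 (-2.00 ± 0.30, adjusted p = 0.00161). Calcr read 6.75 and 6.80 in naive and 7.36 and 7.59 in exposed FVB/N arrays. Of the 17 cortical markers 6 had a called positive difference, and of the 14 hypothalamic markers 3 had a called negative one. The mean cortical signal moved from 7.80 and 7.91 to 8.41 and 8.53 in AChE-S and from 8.64 and 8.33 to 8.27 and 8.02 in FVB/N.

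Among immune genes, the antigen-presenting molecules H2-K1 and H2-D1 differed between the strains. H2-K1 read 10.26 and 10.12 in naive and 9.96 in both exposed AChE-S arrays, against 10.24 and 10.04 and then 10.52 and 10.59 in FVB/N. The difference was -0.65 ± 0.12 (adjusted p = 0.0112) for H2-K1 and -0.68 ± 0.13 (adjusted p = 0.0188) for H2-D1. These are values of 1 probe set per gene, and each gene has several. Their AChE-S responses ran from -0.370 to 0.145 for H2-K1 and from -0.335 to 0.100 for H2-D1, with none called. The 136 calls fell to 50 without naive FVB/N array 1, 57 without exposed FVB/N array 2, 55 without exposed AChE-S array 2 and 87 without naive AChE-S array 2. Without naive FVB/N array 2, whose labels disagree, there were 159, and without the set term 54. By gene there were 111 without that array, 80 of them among the 95. The differences of Neurod6, Myl4, Cck, Oxt, Calcr, Slc17a6, Ache and Ptgs2 were still called without it, and those of H2-K1 and H2-D1 were not (adjusted p = 0.0547 and 0.0570).

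**Figure D5:**
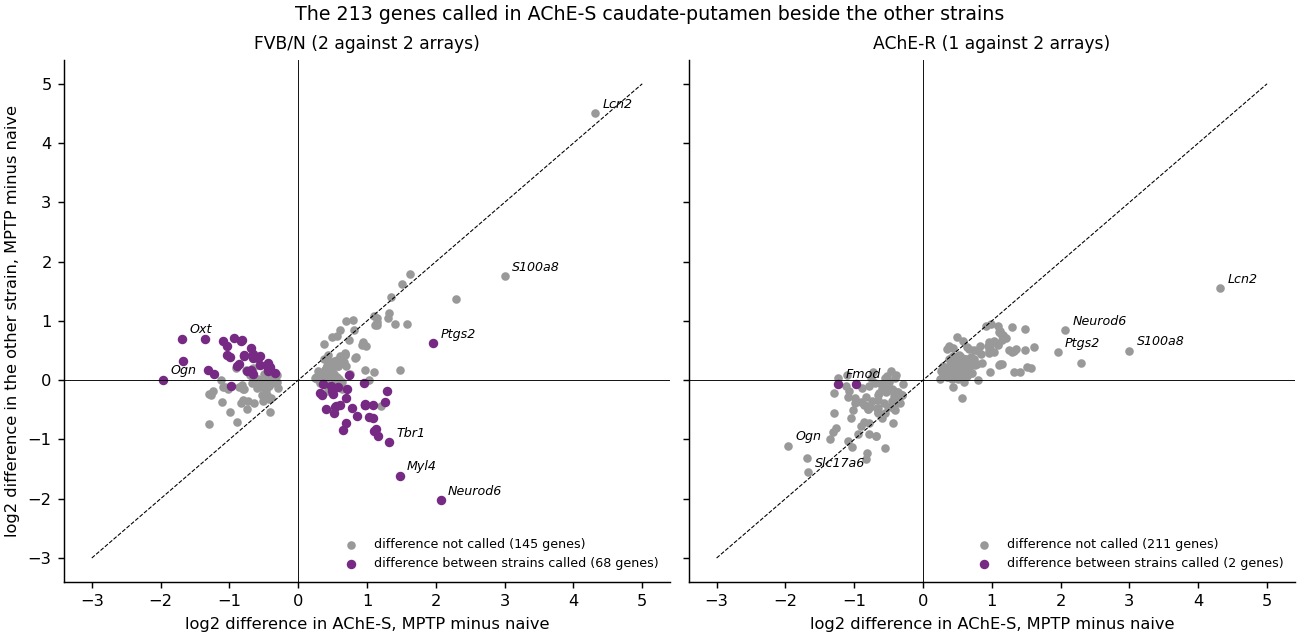
Each point is 1 of the 213 genes called in AChE-S caudate-putamen, with its log2 difference in AChE-S on the x axis and in FVB/N (left) or AChE-R (right) on the y axis; the dashed line marks equal differences and purple a called difference between strains. On the left 68 genes are purple, with Neurod6, Myl4 and Tbr1 below 0 in FVB/N, and Lcn2 lies near the line. On the right 2 are purple, Ifit3 and Fmod, both near 0 in AChE-R.

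In AChE-R mice, with 1 exposed array, 18 of 12393 genes were called (0.145%). The count was 4 and 5 without naive AChE-R array 1 and 2, 5 with the replicate block, 1 without the set term, 66 without the 6 prefrontal arrays and 73 with array weights. Over all 12393 genes, 7291 had a positive difference in AChE-R. Of the 123 AChE-S rises 120 were positive in AChE-R and 3 were called higher there, and of the 90 falls 81 were negative and 8 were called lower. Those are 2.4% of the AChE-S rises and 75.0% of the 4 AChE-R rises, and 8.9% of the AChE-S falls and 57.1% of the 14 AChE-R falls. The 2 strains share no arrays, and genes that vary together are not independent. Lcn2 read 4.95 and 4.65 in naive and 6.35 in the exposed AChE-R array (1.55 ± 0.41, adjusted p = 0.297). It lay below all 4 exposed arrays of the other strains, but its difference from the AChE-S rise, 2.77 ± 0.53, was not called (adjusted p = 0.353). Of the 20 microglial markers 19 were positive in AChE-R, with a median of 0.51. The difference AChE-S minus AChE-R was called for 2 of 22626 probe sets (0.00884%), both lower: Ifit3 (-0.91 ± 0.12, adjusted p = 0.0141) and Fmod (-1.17 ± 0.18, adjusted p = 0.0368). In all, 532 probe sets had an unadjusted p under 0.05, and the single exposed array was taken to vary like the other groups. Neither gene was called without the set term, on the caudate-putamen arrays alone, on replicates 1 and 2 alone, with the replicate block, or without exposed AChE-S array 2 or naive AChE-R array 2. Ifit3 alone of the pair was called without naive AChE-S array 1 or 2 or naive AChE-R array 1. Without exposed AChE-S array 1 there were 4 calls, which included Ifit3, Fmod and Lcn2, and without naive AChE-S array 1 there were 4.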

How the data were processed

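Total RNA of caudate-putamen and prefrontal cortex was hybridised to 29 arrays. The deposited values are log2 signals. Per the submitters' processing notes the authors used RMA, Affymetrix Expression Console and Affymetrix Power Tools; their versions and settings were not given in the sources used here. They were used as deposited, with no filter. The number of arrays limits the precision.

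Of 22690 probe sets, 64 controls were left out. Probe sets were named from the platform annotation of the array, with symbols updated through RefSeq (GRCm38.p6): 20380 had 1 symbol, 691 several and 1555 none. A gene was represented by its probe set with the highest mean (12393 genes). limma 3.58.1 (R 4.3.3) fitted 12 group means and a set term for the 6 naive prefrontal arrays numbered 3 and 4, whose labels spell the region differently, with 16 residual degrees of freedom. Tests were two-sided and adjusted by Benjamini-Hochberg over 22626 probe sets; errors are standard errors. In simulated data the AChE-S comparison recovered 90% of 100 probe sets changed by 1 and 97% of 100 changed by 2 (log2), with 12 false calls. The simulated noise was normal and independent between probe sets, with no difference between regions. These figures need not hold for arrays whose genes vary together.

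The 35 lists and all genes were chosen with earlier results of these data known. The naming rule took Ache, Bche, Chat (no single-symbol probe set), Th and Slc6a3, the 15 largest called rises and falls, 3 genes per list and the 8 largest called differences per direction (5 smallest p where under 5 were called). Genes named outside it, such as Lrrk2, Penk, Elane, Ch25h, Ly86, Ctss, Fkbp5, Gfap, Col3a1, Ifit1 and Irf7, were chosen after their values were seen. List counts and medians have no test. Same-numbered naive and exposed AChE-S arrays did not deviate together (r = 0.01), so no pairing was used. Alternatives were other sets of arrays, a replicate block, quantile normalization, a low-signal filter, other variance models and leaving out each array.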

Additional observations from a re-analysis of the deposited data

Results flagged for a closer look

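The MPTP response differed between AChE-S and FVB/N caudate-putamen, by limma's test of the difference, for 8 genes in each direction chosen by size. The AChE-S response was the higher for Neurod6 (4.09 on the log2 scale), Myl4 (3.09), Tbr1 (2.37), Cck (2.10), Prss12 (1.95), Rspo2 (1.95), Rasl10a (1.73) and Vip (1.65). In these 8 genes the AChE-S difference was positive and the FVB/N difference negative. The AChE-S response was the lower for Oxt (-2.39), Calcr (-2.06), Slc17a6 (-2.00), Ogn (-1.97), Gal (-1.75), Agt (-1.65), Cckar (-1.61) and Sytl4 (-1.49). Agt encodes angiotensinogen and read 9.44 and 9.53 in naive and 8.49 and 8.60 in exposed AChE-S arrays, against 8.37 and 8.52 and then 9.07 and 9.24 in FVB/N. Neurod6, Tbr1 and Cck are in the cortical list and Slc17a6 in the thalamic, Oxt and Gal in the hypothalamic and Ogn in the meningeal list. The naive AChE-S arrays had the lowest cortical and the highest thalamic and meningeal means of the 11 caudate-putamen arrays. For the hypothalamic mean they overlapped with the exposed FVB/N arrays (8.88 and 9.27 against 8.75 and 8.91). The part of these markers in the differences was not tested.

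The responses of AChE-S and AChE-R differed for Ifit3 (-0.91) and Fmod (-1.17), with 1 exposed AChE-R array taken to vary like the other groups. Neither difference was called without the set term, on the caudate-putamen arrays alone, on replicates 1 and 2 alone or with the replicate block. Ifit3 was also lower in the exposed AChE-S prefrontal arrays. Groups of 2 arrays are too small for a check of single outlying arrays.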

How the results depend on the processing

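The AChE-S response called 318 probe sets, 100 without the set term, 855 without the 6 naive prefrontal arrays 1 and 2, 554 on replicates 1 and 2 alone, and 69 on the 4 AChE-S arrays alone; leaving out single arrays gave 51 to 295. Fewer arrays enter the last fits. The set term covers naive prefrontal arrays alone, so leaving it out changes the error and not the AChE-S differences. Without it the difference of Ache stayed at -0.66, and its error went from 0.14 to 0.24. For the other fits the cause was not tested. The 6 naive prefrontal arrays 1 and 2 differed from all others in sex markers. Eif2s3y, a Y-linked gene, read 3.42 to 3.83 in them and 8.41 to 9.20 elsewhere. Xist, which marks females, read 8.62 to 10.61 in them and 6.78 to 7.24 elsewhere. Among them, AChE-R array 2 had the lowest actin 5′ minus 3′ signal, -2.30 against -1.41 or more elsewhere. The part of these differences in the counts was not tested. The difference AChE-S minus FVB/N called 136, 54 without the set term, 322 without the 6 naive prefrontal arrays and 259 with array weights, and 50 to 159 without single arrays. The difference AChE-S minus AChE-R called 2 by limma. It called 1 without the 6 prefrontal arrays and 1 after quantile normalization. It called 0 without the set term, on the caudate-putamen arrays alone, on replicates 1 and 2 alone and with the replicate block, where 242, 1007, 800 and 454 probe sets had an unadjusted p under 0.05, and 0 to 4 without single arrays. Other alternatives stayed within 1.5 times of each count.

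The replicate block gave 252, 101 and 0 calls for the 3 comparisons. Same-numbered naive arrays of AChE-S and FVB/N deviated in opposite ways (r = -0.35); with the naive FVB/N numbers crossed, an alternative chosen after seeing the data, like the gene counts of the other strains without single arrays, the counts were 267, 113 and 0, with 444 at an unadjusted p under 0.05 in the last. Of 68 called named genes, 68 were called without the 6 prefrontal arrays, 63 after quantile normalization, 59 with the block, 52 on the caudate-putamen arrays alone, 37 without the set term, 23 on the 4 arrays alone and 22 to 56 without single arrays. None of the 68 changed sign in these fits. With 2 arrays per group, neither detection calls nor scans were analysed here, which limits what low signals can show.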

Other observations

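Further called genes fit none of the lists above. Cirbp, a cold-inducible RNA-binding protein, read 9.95 and 10.08 in naive and 9.16 and 9.21 in exposed AChE-S arrays (-0.83 ± 0.09, limma adjusted p = 9.31e-05), below the 7 other caudate-putamen arrays (9.37 to 10.41). Thbs4, thrombospondin 4, read 6.57 and 6.34 in naive and 7.65 and 8.23 after MPTP (2.80-fold, adjusted p = 0.00344). Ctla2a and Ctla2b, related inhibitors of cysteine proteases, rose 2.98-fold and 2.65-fold, with Ctla2a at 7.39 in exposed array 1 and 9.20 in array 2. Their sequences are similar, so their probe sets may share signal, and without array 2 neither was called (Ctla2a 0.67, adjusted p = 0.867; Ctla2b 0.81, adjusted p = 0.358). Ctla2a was also not called without either naive array, nor Ctla2b without naive array 1 (adjusted p = 0.0826). Hes5, a target of Notch signalling in glial progenitors, fell from 7.98 and 8.05 to 7.53 and 6.72 (1.85-fold lower, adjusted p = 0.00963). Serpina1b, an α1-antitrypsin gene with close copies in the mouse genome, and Cnmd, chondromodulin, fell 2.13-fold and 2.10-fold, and for both the naive AChE-S arrays read above the 7 arrays of the other strains.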
